A study of Mus musculus with 49 samples.

Results

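The genes described here encode the proteins of the cytosolic ribosome. They were taken as every probe set of the U74Av2 array that matched 1 gene and whose symbol begins with Rpl (large subunit) or Rps (small subunit) followed by a digit, a or p, and the S6 kinase genes, which share the letters Rps6k, were left out. This rule found 40 probe sets of 33 genes among the 7417 genes on the array, and each gene was represented by its probe set with the highest mean signal, leaving 16 Rpl and 17 Rps genes. A further 32 probe sets detect a ribosomal protein together with pseudogenes or other predicted genes and were kept apart. For this reason Rpl3, Rpl5, Rps6 and Rplp1 could not be followed by name. Of the 33, Rpl7l1 encodes a ribosomal protein-like factor and Rpl39l and Rps4l are paralogs of Rpl39 and Rps4x, so they stand for variants of the core ribosome.

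The study asked whether the surface immunoglobulin of immature B cells, the first bone marrow stage that displays a complete receptor, has to signal continuously to hold cells at that stage. RNA was hybridised to 37 arrays in 10 groups, and none of the replicates is stated by the labels to be a technical copy of another.
Ctrl-Mhi (n = 4) and Cre-Mhi and Cre-Mlo (n = 4 each) were bone marrow cultures expanded with interleukin-7, then kept 2 days without it and with interferon-alpha/beta. Ctrl-Mhi cells carried B1-8h and 3-83(kappa), a heavy chain knock-in flanked by loxP sites and a light chain. Cre-Mhi and Cre-Mlo cells carried in addition Mx-Cre, a recombinase driven by an interferon-responsive promoter and therefore not restricted to B cells, and were sorted for high or low surface IgM, the low sort being the cells that had lost the receptor. GFPneg and GFPpos (n = 3 each) came from cultures of anti-HEL immunoglobulin and Rag-2-GFP doubly transgenic mice, whose B cells share 1 receptor and report Rag2 promoter activity as green fluorescence. They were kept 1 day without interleukin-7. GFPpos cells had also received herbimycin A, a tyrosine kinase and Hsp90 inhibitor, so that drug and fluorescence gate differ together. B6-M- (n = 3) were B220+ cells without surface IgM from interleukin-7 cultures of C57BL/6 mice. FxD (n = 3) and FxE (n = 3) were pre-B cells (B220+ CD43- IgM-) and immature B cells (B220+ IgM+ IgD-) sorted directly from Balb/c marrow, and their RNA went through 2 rounds of amplification. FxE Ctrl (n = 4) and FxE HA (n = 6) were immature B cells of Bcl-2 transgenic mice, a survival transgene carried by both groups, cultured 1 to 2 days in medium or with herbimycin A. The mice were in general 4 to 8 weeks old per the methods.

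Each eukaryotic ribosome contains 1 copy of nearly every one of these proteins, and their mRNAs are among the most abundant of growing cells. Most of those mRNAs start with a 5′ terminal oligopyrimidine tract (TOP), through which nutrient and growth factor signals acting by way of mTOR set how efficiently they are translated. Their amount of protein can therefore change with little change in mRNA, which is all that an array measures. In the B lineage, pro-B and large pre-B cells divide and build ribosomes rapidly, whereas small pre-B and immature B cells rest.

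The windows around the annotated transcription starts were taken from RefSeq on GRCm38.p6 for the 27 members that had one. The 6 others were Rpl7, Rpl8, Rps14, Rps20, Rps29 and Rps4l. The lines that follow give 15 bases before the start and 15 from the start onward, on the gene's strand, for 4 members with a pyrimidine motif at the start and for Rpsa and Rpl13a, the bright members (defined with the signals) with the largest F between groups, which had none within 10 bases of the start. Capitals mark the motifs CTTTC and CCTTT, which overlap where they read CCTTTC, found within 10 bases either side of the start. Copies farther out, such as the one that ends the Rpl13a line, were not counted and are in lower case.
Rps10, chr17:27635230-27635259, minus strand: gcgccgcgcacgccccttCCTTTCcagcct
Rps27, chr3:90213634-90213663, minus strand: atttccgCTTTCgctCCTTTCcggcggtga
Rpl7a, chr2:26910792-26910821, plus strand: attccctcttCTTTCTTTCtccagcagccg
Rpl38, chr11:114668565-114668594, plus strand: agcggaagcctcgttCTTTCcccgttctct
Rpsa, chr9:120127751-120127780, plus strand: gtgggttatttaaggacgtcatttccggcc
Rpl13a, chr7:45128731-45128760, minus strand: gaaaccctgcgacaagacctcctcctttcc
The motif CTTTC, the motif CCTTT or the motif CTTTT lay within 10 bases of a start in 6 of the 27 genes (22.2%), against 6.11% of 27025 genes with windows. The motif CCGGAAG, a core bound by ETS family factors, occurred on either strand of the 300-base window in 11 of 27 (40.7%), against 9.93% of all genes, and AAGATGG in 7 of 27 (25.9%), against 7.28%. These are matches of letters only, and an annotated start need not be the start used in B cells.

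The members fell into a bright and a dim set. For 20 of them the mean log2 signal over the 37 arrays was at least 13, which placed them at or above percentile 96.0 of the table, and Rpl41 was its brightest probe set. Rpl41, Rps24 and Rps28 had the highest mean signals, at 145957, 106710 and 98831 units. A further 5 members (Rpl22, Rpl7l1, Rps27, Rps29 and Rps4l) had mean signals of at least 500, and 8 lay below 500, down to Rps14 at 85.2, Rps15 at 121 and Rpl39l at 129. Signals of different probe sets are not levels of different mRNAs. A second probe set for Rpl7 averaged 85.1 units against 68055 for the one used, and one for Rps24 averaged 307 against 106710. Dim members such as Rps14 and Rps15 encode core proteins of the small subunit, and the signals of the 8 dim probe sets scattered with little in common over the 37 arrays (median pairwise correlation 0.06). Comparisons below are therefore made within a gene, and the bright members carry the measurement.

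**Figure D1:**
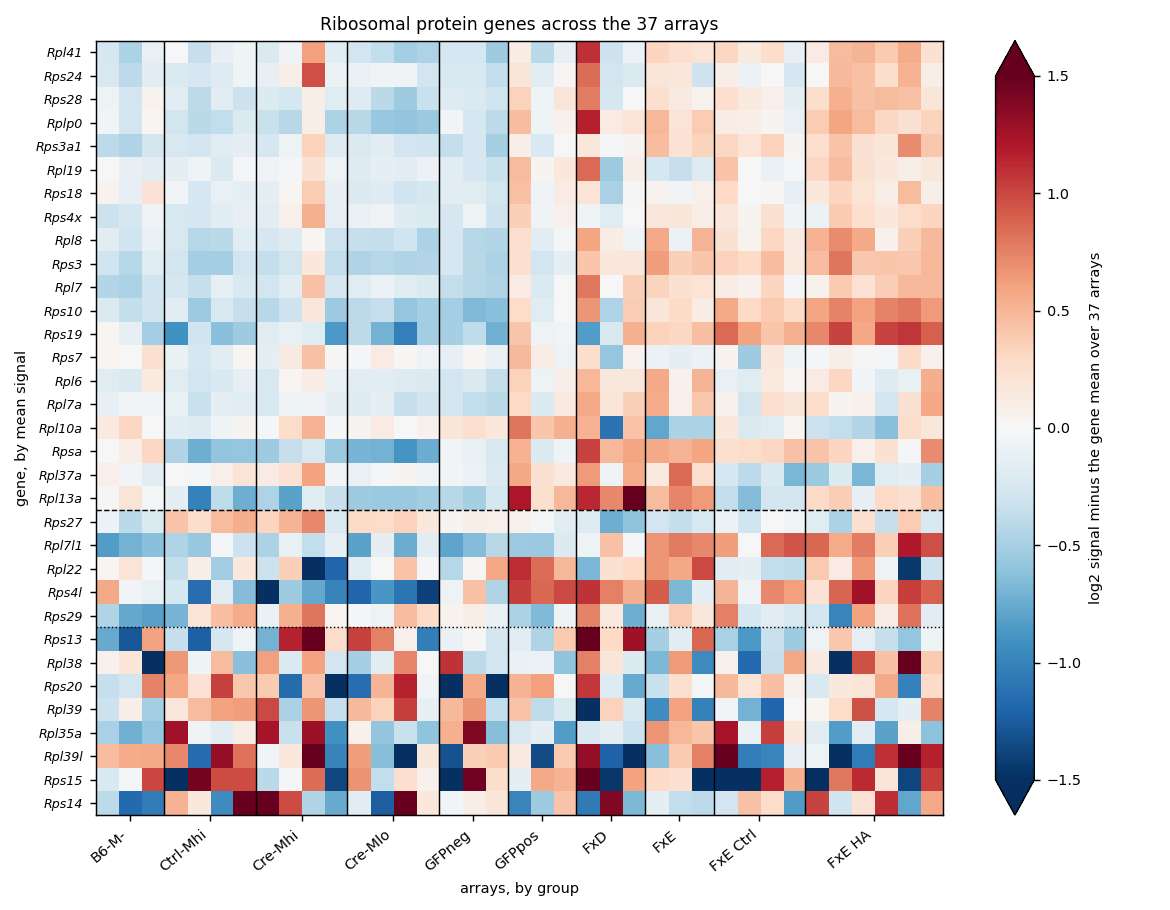
Log2 signal of each of the 33 genes (rows, from highest to lowest mean signal) on each of the 37 arrays (columns, by group), minus the gene's own mean; the dashed line separates the 20 members with mean log2 signal of at least 13 and the dotted line those with mean signal under 500. Rows above the dashed line largely share their pattern, with Cre-Mhi replicate 3, GFPpos replicate 1 and FxD replicate 1 high, while rows below the dotted line scatter from array to array.

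The share of the summed signal of an array that came from the 33 genes ran from 4.58% to 7.73%. It was 4.96%, 4.92%, 4.70% and 4.69% on the Cre-Mlo arrays and 4.96%, 4.58%, 4.91% and 5.02% on the Ctrl-Mhi arrays. The Cre-Mhi arrays gave 4.94%, 5.30%, 6.61% and 4.86%, so that replicate 3 stood above the rest of its group. GFPneg arrays gave 4.99%, 4.93% and 4.59%, and GFPpos arrays 6.92%, 5.47% and 5.92%, with no overlap between these groups. The B6-M- arrays lay at 5.32%, 5.04% and 5.46%. In cells sorted from marrow the share was 7.73%, 5.18% and 6.09% for FxD, 6.42%, 5.81% and 6.08% for FxE, 6.37%, 5.80%, 6.34% and 5.72% for FxE Ctrl, and from 6.39% to 7.26% with a median of 6.76% for FxE HA. Every FxE HA array thus lay above every FxE Ctrl array. The group means were 4.82% ± 0.14 (SD, n = 4) in Cre-Mlo, 4.87% ± 0.20 (n = 4) in Ctrl-Mhi, 5.43% ± 0.81 (n = 4) in Cre-Mhi, 4.83% ± 0.22 (n = 3) in GFPneg, 6.10% ± 0.74 (n = 3) in GFPpos, 6.06% ± 0.35 (n = 4) in FxE Ctrl and 6.81% ± 0.37 (n = 6) in FxE HA. Adding the 32 probe sets shared with pseudogenes raised the shares to group means between 10.4% and 13.6%.

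**Figure D2:**
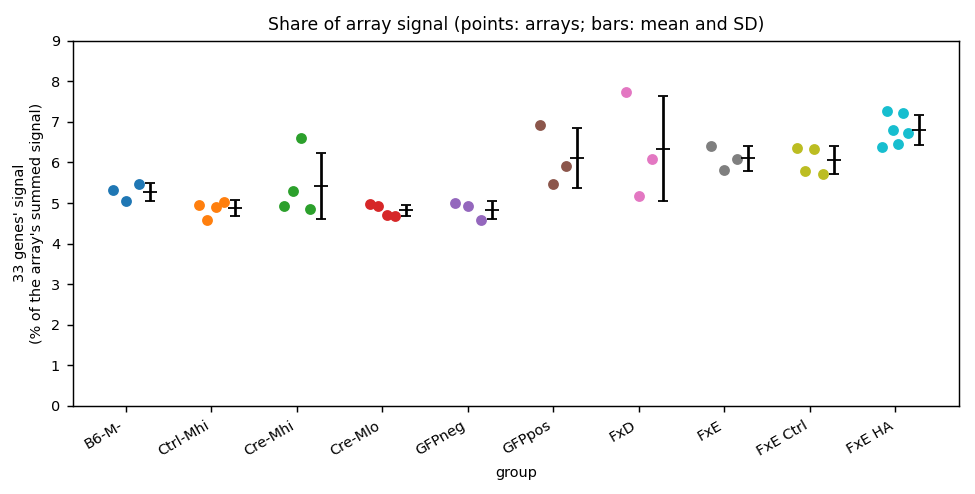
Percent of each array's summed signal that came from the 33 genes, by group; points are arrays, and black marks give the mean and SD. The 3 GFPpos arrays lie above the 3 GFPneg arrays, and the 6 FxE HA arrays above the 4 FxE Ctrl arrays, while Cre-Mlo and Ctrl-Mhi arrays overlap.

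In bulk RNA, fewer cells of a type and less RNA per cell cannot be told apart. Array medians ran from 345.9 to 544 units. The B lineage markers (6 measured, with Cd79a, Vpreb3 or Blk the brightest) were present in every group, with summed signals of 129840 to 212042 in the interleukin-7 cultures and 48557 to 106771 in the groups sorted from marrow. Of 11 myeloid markers measured, 9 or 8 had mean signals under 500 in each interleukin-7 culture group, with sums of 2027 to 4609 over those arrays. Their sums were 28663 to 278162 in the marrow groups, with S100a8 or Camp the brightest, and 6 erythroid markers summed to 60783 to 162746 in FxD and FxE, with Hba-a1 the brightest, against 1648 to 9453 in the cultures. The part of these cells in any difference between culture and marrow groups was not tested.

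Loss of the receptor in culture went with no change in ribosomal protein mRNA that these arrays could call. Of the 33 members, limma with Benjamini-Hochberg adjustment over all 9977 probe sets called 0 in Cre-Mlo against Ctrl-Mhi, beside 8.33% of all probe sets. At an unadjusted p below 0.05 the count was again 0, beside 20.9% of all probe sets, and the methods' t-test (the study's rule of a p, a 2-fold change and a minimum difference) called 0. The log2 differences of the 33 ran from -0.81 to 0.67, short of 2-fold, so the 0 from this rule adds little. All 20 bright members had 95% intervals inside a 2-fold change, with differences from -0.28 to 0.15 and bounds from -0.68 to 0.53 on the log2 scale. Of the 33, 10 were higher and 23 lower, with a median of -0.07 against -0.04 for all probe sets. The median was -0.10 without Ctrl-Mhi replicate 2 and turned to 0.03 after quantile normalization.
Rplp0, the protein of the ribosomal stalk on which Rplp1 and Rplp2 assemble, read 68568, 61691, 60665 and 62270 in Cre-Mlo and 75590, 68994, 70746 and 78278 in Ctrl-Mhi. These 2 sets of signals did not overlap, which held for this member only (3.03% of members, 16.7% of all probe sets), and the set of separated members depended on the scaling. With arrays centred on the probe sets that are not members, Rplp0 overlapped and Rpl10a and Rps7 separated as higher in Cre-Mlo (6.06%, beside 16.1%). After quantile normalization Rplp0 stayed separated and 6 members (Rpl10a, Rpl6, Rpl7, Rps24, Rps4x and Rps7) separated as higher, in all 21.2% beside 16.4%. The log2 difference of -0.21 (SE 0.14) had a limma adjusted p of 0.431.
Rps3, a small-subunit protein at the mRNA entry site, read 51055, 51940, 51134 and 51599 in Cre-Mlo and 57347, 49022, 49215 and 57266 in Ctrl-Mhi, with overlap and a difference of -0.04 (SE 0.14; limma adjusted p = 0.895). Rps19, the protein most often mutated in Diamond-Blackfan anaemia, differed by -0.07 (SE 0.21), Rps4x by 0.05 (SE 0.15) and Rpl13a by 0.02 (SE 0.19), and limma adjusted p-values for these 3 were 0.888 or more.

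Against the receptor-bearing cells of the same cultures, Cre-Mhi, 28 of 33 members were lower in Cre-Mlo, among them all 20 bright ones, but the size was small and 1 array carried much of it. The median difference was -0.18, against -0.03 for all probe sets, and -0.08 without Cre-Mhi replicate 3. Quantile normalization, which forces all arrays to the same distribution, left a median of 0.0026 with 17 members higher. limma called 0 members, beside 6.08% of all probe sets, and 2 had an unadjusted p below 0.05 (Rpsa and Rpl41), beside 17.4%. The methods' t-test called 0.
Rpsa, a small-subunit protein also known as the laminin receptor, read 11539, 11525, 10171 and 11199 in Cre-Mlo and 12999, 14792, 15918 and 12812 in Cre-Mhi. Every Cre-Mlo value lay below every Cre-Mhi value, one of 5 members of which this held (15.2%, beside 13.9% of all probe sets without overlap and 6.47% lower without overlap; after quantile normalization Rpsa alone, 3.03% beside 13.7%), and the log2 difference was -0.34 (SE 0.12; limma adjusted p = 0.132). With signals raised to a floor of 100, or with dim probe sets left out, Rpsa passed the threshold, with limma adjusted p-values of 0.0335 and 0.0442. With the replicate number as a block in the joint fit of the Cre groups, its limma adjusted p was 0.236. That block also ties in the same-numbered Ctrl-Mhi samples, which did not deviate together with these. It is therefore not a paired test of Cre-Mlo against Cre-Mhi, and such a test was not run.
In Cre-Mhi against Ctrl-Mhi, both sorted for high IgM, where part of the Cre-Mhi cells had already deleted the heavy chain allele, 26 members including all 20 bright ones were higher by a median of 0.13, and limma called 0 beside 0.02% of all probe sets, with 0 at an unadjusted p below 0.05, beside 7.13%, and 0 by the methods' t-test. In 0 members did the groups separate, beside 3.91% of all probe sets. Without Cre-Mhi replicate 3 the median was 0.04, and without Cre-Mhi replicate 4 it was 0.22. Cre-Mhi replicate 3 was the highest of its group for 19 of the 20 bright members. The comparisons with Cre-Mlo and Ctrl-Mhi share these Cre-Mhi arrays and each other's arrays, so they are not independent.

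Freshly sorted pre-B and immature B cells, the normal stages on either side of receptor display, also gave no called member. limma called 0 of 33 in FxD against FxE, beside 3% of all probe sets, with 2 at an unadjusted p below 0.05 (Rpl35a and Rpl7l1), beside 14.2%, and 0 by the methods' t-test. Members split into 16 higher and 17 lower, with a median of -0.0013. This comparison was wide: only 14 of the 20 bright members had intervals inside a 2-fold change, against 20 in the comparison of Cre-Mlo with Ctrl-Mhi. FxD replicate 1 was the highest of its group for 17 of 20 bright members, and the median was -0.23 without it and 0.19 without FxD replicate 2. Rplp0 read 205294, 99360 and 105100 in FxD and 128839, 104983 and 118648 in FxE.
Rpl10a, a large-subunit protein near the exit site for transfer RNA, read 43531, 14083 and 40881 in FxD and 17723, 21818 and 21790 in FxE, so that a single FxD array fell below all FxE arrays and 2 lay above. Groups separated for 5 members, all lower in FxD (Rpl22, Rpl35a, Rpl7l1, Rps3a1 and Rps4x; 15.2%, beside 20.2% of all probe sets in either direction and 9.43% lower). After quantile normalization 4 separated as higher (Rpl13a, Rpl19, Rpl7 and Rpsa) and 3 as lower (Rpl22, Rpl35a and Rpl7l1). In all this was 21.2% of members, beside 20.7% of all probe sets. After centring 1 separated as higher (Rpl13a) and the same 3 as lower, 12.1% beside 20.4%. Rpl7l1 read 938, 1341 and 977 in FxD and 1571, 1695 and 1629 in FxE, with a log2 difference of -0.61 (SE 0.25; limma adjusted p = 0.349). A test of whether the Cre-Mlo effect differed from the FxD effect (limma, contrast of the 2 differences) called 0 of 33, beside 3.64% of all probe sets. An unadjusted p below 0.05 was reached by 2 of the 33 members, beside 1455 of all 9977 probe sets.

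**Figure D3:**
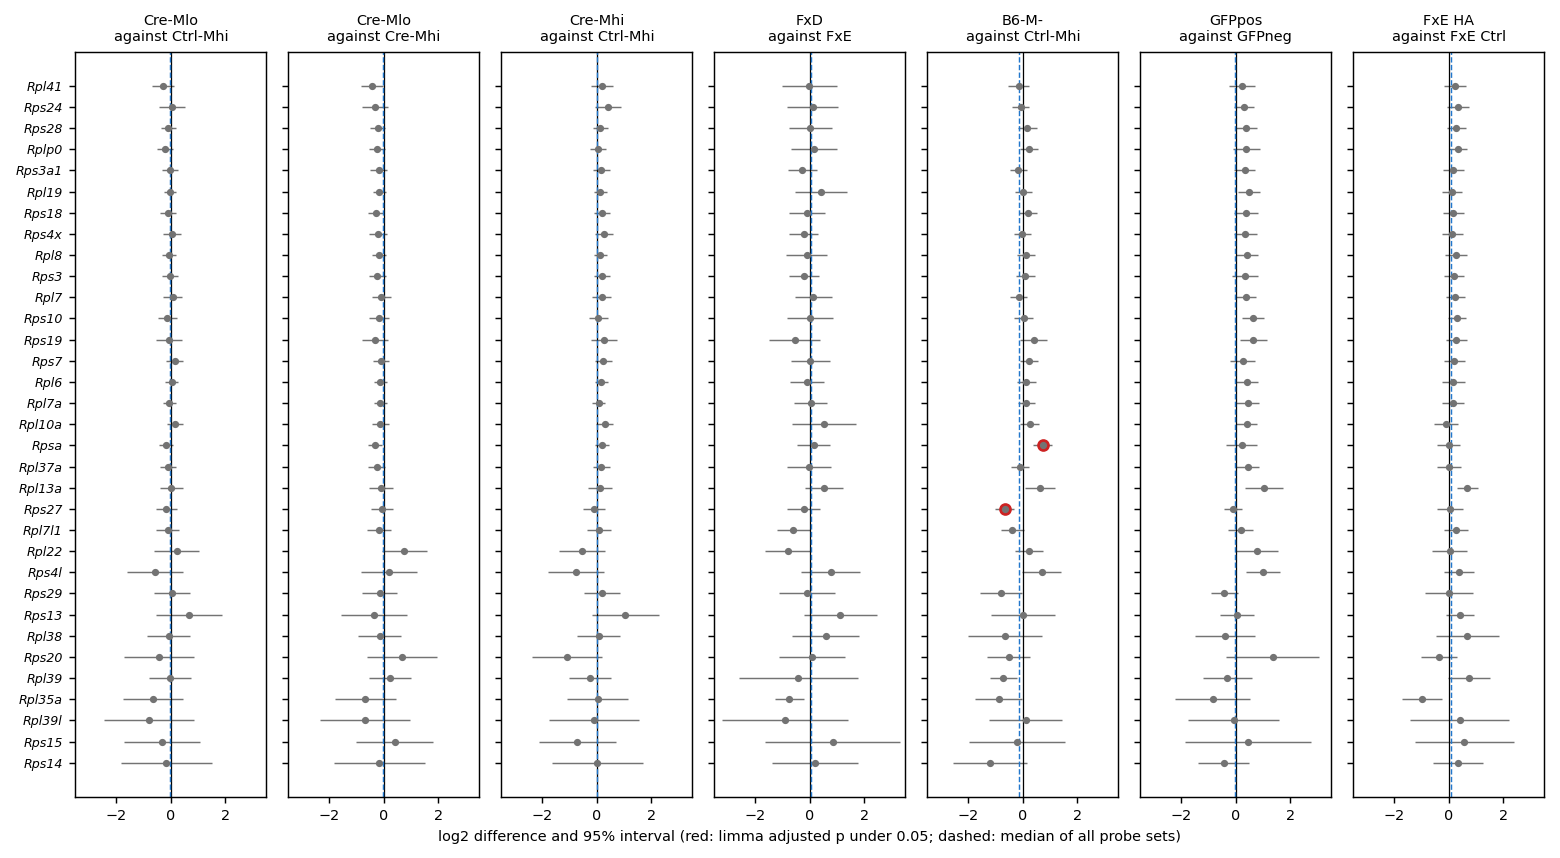
Log2 difference of each of the 33 genes (rows, from highest to lowest mean signal) in the 7 comparisons, with 95% intervals from limma; red marks the 2 calls, Rpsa and Rps27 in B6-M- against Ctrl-Mhi, and the dashed line is the median of all probe sets. Bright members in the upper rows have intervals near 0 in the Cre comparisons and lie to the right of 0 in GFPpos against GFPneg.

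The interleukin-7 expanded cells without IgM, a mixture that in such cultures is rich in dividing pro-B and pre-B cells, differed from Ctrl-Mhi in genotype, interferon and reculture as well as stage. Here limma called 2 of 33 members (6.06%), beside 14.2% of all probe sets (6.91% higher and 7.3% lower), and 6 had an unadjusted p below 0.05, beside 29.4%. Rpsa rose. It read 18725, 20089 and 23220 in B6-M- and 13760, 11302, 12502 and 12571 in Ctrl-Mhi, without overlap, a log2 difference of 0.72 (SE 0.15; limma adjusted p = 0.0214). Rps27, a zinc-finger protein of the small subunit, fell. It read 3092, 2485 and 2826 in B6-M- and 4415, 3958, 4580 and 4782 in Ctrl-Mhi, again without overlap, a log2 difference of -0.66 (SE 0.15; limma adjusted p = 0.0282). Both passed under quantile normalization and under centring each array on the non-member probe sets. Neither passed without B6-M- replicate 2, B6-M- replicate 3, Ctrl-Mhi replicate 3 or Ctrl-Mhi replicate 4, nor with the replicate number as a block (limma adjusted p = 0.164 and 0.167). Rps27 also missed the threshold without Ctrl-Mhi replicate 1, where Rps29 passed it instead. The methods' t-test, which also asks for a 2-fold difference, called 0.
Of the 33, 17 were higher and 16 lower, with a median of 0.02 against -0.13 for all probe sets. Under quantile normalization 23 were higher with a median of 0.15, and centred on the non-member probe sets 20 were higher with a median of 0.10. Rpl13a, which besides its place in the large subunit takes part in interferon-gamma-dependent silencing of inflammatory mRNAs, read 9230, 10396 and 8912 in B6-M- and 8336, 4530, 7038 and 5512 in Ctrl-Mhi, without overlap (log2 difference 0.62, SE 0.23; limma adjusted p = 0.134). It passed with probe sets of mean signal under 500 left out (limma adjusted p = 0.047). Groups separated for 7 members (21.2%, beside 29.3% of all probe sets), 3 higher and 4 lower. After quantile normalization this held for 16 members (48.5%, beside 28.3%), 12 higher and 4 lower, and after centring for 9 (27.3%, beside 28.8%).

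Genes that build and drive ribosomes did move in the same comparison. Of 30 measured ribosome biogenesis genes, 12 were called higher and 0 lower in B6-M- (6.91% of all probe sets were called higher), with a median log2 difference of 0.45. Ncl, nucleolin, was higher by 1.44 (SE 0.15; limma adjusted p = 0.002), Nhp2, a protein of box H/ACA particles, by 1.57 (SE 0.17), and Nop58, a protein of box C/D particles, by 1.44 (SE 0.16). Myc, the transcription factor that drives ribosome production, was higher by 2.13 (SE 0.30; limma adjusted p = 0.0057). It was 1 of 2 called higher among 11 growth regulators, beside Mtor at 2.32 (SE 0.21), while Mxd4, a Max partner that opposes Myc, was lower by -0.93 (SE 0.21). Of 56 mitochondrial ribosomal protein genes, 11 were called higher and 0 lower. Of 23 initiation factor genes 1 was called higher, Eif2s3x, and of 4 elongation factor genes none. Of the 10 other TOP mRNAs listed, 2 were called higher, Npm1 by 1.02 (SE 0.18) and Nap1l1 by 0.84 (SE 0.18). B6-M- arrays also had more erythroid marker signal than Ctrl-Mhi arrays (sums of 6782 to 9453 against 1981 to 2847; Car2 the brightest, with means of 6806 and 1297). The other 5 of the 6 erythroid markers had means under 500 in both groups, so this difference rests largely on Car2. T cell marker sums were 1825 to 3187 against 1037 to 1733 and B lineage sums 129840 to 154423 against 176401 to 212042. None of these 3 ranges overlapped, and the part of these cells in the result was not tested.
The same lists in Cre-Mlo against Ctrl-Mhi gave 1 biogenesis gene higher (Rrn3) and 1 lower (Tcof1), 1 initiation factor higher (Eif4g2), 4 mitochondrial ribosomal protein genes higher and 2 lower, and 1 other TOP mRNA higher (Btf3) and 1 lower (Nap1l1, by -1.56, SE 0.24; limma adjusted p = 0.0022). Over all probe sets, 8.33% were called there. None of the 11 growth regulators was called, and their median difference was -0.21, while the medians of the other lists lay between -0.04 and 0.09.

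With herbimycin A most members were higher, although none was called, and in the first comparison the drug and the fluorescence gate cannot be told apart. In GFPpos against GFPneg, 26 of 33 members were higher, including all 20 bright ones, with a median log2 difference of 0.38 against -0.02 for all probe sets. limma called 0, beside 2.59% of all probe sets, and the methods' t-test called 0. An unadjusted p below 0.05 was reached by 9 members (27.3%), beside 20.9% of all probe sets. In 16 members (48.5%) every GFPpos value exceeded every GFPneg value, against 14.1% of all probe sets (29.2% in either direction), and in 0 was the reverse seen, against 15.2%. Over the 430 non-member probe sets that also had a mean log2 signal of at least 13 the median difference was 0.05. They share this threshold with the bright members but were not matched to them in signal level. Over the 32 probe sets shared with pseudogenes the median was 0.32, with 28 higher.
GFPpos replicate 1 was the highest of its group for all 20 bright members, and without it the median was 0.24, with 25 higher. Quantile normalization reduced the median to 0.14 with 26 higher. It left 13 members (39.4%) without overlap, all higher in GFPpos, beside 29.2% of all probe sets (15.1% higher). Centring on the non-member probe sets raised the median to 0.48. It left 20 members (60.6%) without overlap, again all higher, beside 28.6% of all probe sets (17.3% higher). The direction of the median was thus kept under each scaling, but its size was not.
Rpl13a had the largest difference among the bright members. It read 21204, 10783 and 12854 in GFPpos and 6815, 6456 and 7691 in GFPneg, a log2 difference of 1.04 (SE 0.28; limma adjusted p = 0.123). Rps10, a small-subunit protein that is ubiquitinated on stalled ribosomes, read 79326, 58037 and 65403 in GFPpos and 46274, 41410 and 42345 in GFPneg, a difference of 0.63 (SE 0.17; limma adjusted p = 0.116). Rps19 read 81000, 57447 and 58776 against 42750, 46501 and 36776, a difference of 0.63 (SE 0.20; limma adjusted p = 0.160).
All 3 genes were thus higher on each GFPpos array than on each GFPneg array. Among the dimmer members, Rps4l read 1278, 1130 and 1235 in GFPpos and 593, 843 and 456 in GFPneg (difference 0.99, SE 0.25; limma adjusted p = 0.107), and a second Rps4l probe set correlated at -0.30 with this one over the 37 arrays. With probe sets of mean signal under 500 left out, Rpl13a, Rps4l and Rps10 passed, with limma adjusted p-values of 0.0329, 0.0274 and 0.0325. Rps27 was not higher, at 3424, 3253 and 2920 in GFPpos against 3386, 3489 and 3460 in GFPneg. The other TOP mRNAs had a median difference of 0.24, while the biogenesis list had a median of -0.10. The 4 elongation factor genes had a median of 0.36 but were not all in the same direction. Eef2, the translocase of elongation, differed by 0.43 (SE 0.16, limma adjusted p = 0.209) and Eif5a by 1.39 (SE 0.83). Eef1b2 was lower, by -1.22 (SE 0.35, limma adjusted p = 0.136). Called lower were Nap1l1, at -1.21 (SE 0.14; limma adjusted p = 0.0286), and 1 biogenesis gene, Tcof1. Natural killer cell markers (4 measured) summed to 599 to 961 in GFPpos and 140 to 502 in GFPneg, without overlap. Klrd1 was the brightest of them, with means of 562 and 134, and the other 3 had means under 500 in both groups. T cell marker sums were 977 to 1137 and 1335 to 1889, stromal sums 915 to 1285 and 1376 to 1722, and neither pair overlapped. Myeloid sums were 2053 to 4609 in GFPpos and 2632 to 2870 in GFPneg and erythroid sums 1648 to 2259 and 2261 to 3385, the latter without overlap. Of the 6 erythroid markers, Car2 was the brightest in both groups, and the other 5 had means under 500. The part of these cells in the result was not tested.

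In the second use of the drug, FxE HA against FxE Ctrl, fitted with hours of culture (24 or 48) as a covariate, 29 of 33 members were higher, 18 of the 20 bright ones among them. The median log2 difference was 0.22, against 0.07 for all probe sets, and it was 0.20 in the 24 h arrays and 0.21 in the 48 h arrays taken alone. It was 0.08 with 21 members higher after quantile normalization. limma called 0, beside 3.37% of all probe sets, with 2 at an unadjusted p below 0.05 (Rpl13a and Rpl35a), beside 15.5%, and the methods' t-test called 0. In 3 members (9.09%), Rpl13a, Rplp0 and Rps10, every FxE HA value lay above every FxE Ctrl value, against 2.33% of all probe sets (5.85% in either direction). After quantile normalization only Rpl13a separated as higher and Rpl35a separated as lower, in all 6.06% beside 6.22% of all probe sets. Centring separated the same members in the same directions, 6.06% beside 4.94%.
Rpl13a read 7136, 5835, 7556 and 7567 in FxE Ctrl, and 8393 at the lowest, 11188 at the median and 12468 at the highest in FxE HA. Its log2 difference was 0.67 (SE 0.17; limma adjusted p = 0.073), and it passed with a floor of 100 (adjusted p = 0.0155), with dim probe sets left out (adjusted p = 0.0133) and with all 37 arrays in one limma fit (adjusted p = 0.0262). Rplp0 read 98724, 97897, 94195 and 84471 in FxE Ctrl and 107326, 116889 and 137236 as lowest, median and highest in FxE HA, a difference of 0.33, which passed only with a floor of 100 (limma adjusted p = 0.0245). Rps10 read 97377, 80905, 86131 and 79811 in FxE Ctrl and 98682, 105920 and 113250 as lowest, median and highest in FxE HA. The group means of these 3 genes were also higher in GFPpos than in GFPneg, in mice of other genotypes. That was true of all 20 bright members, so it was not particular to the 3 genes picked here. Rplp0 overlapped between GFPpos and GFPneg (125374, 87242 and 95365 against 88496, 76338 and 69336). The erythroid marker sums were 14039 to 42690 in FxE HA and 6320 to 15432 in FxE Ctrl, and natural killer marker sums 589 to 1250 and 286 to 599. All 4 natural killer markers had means under 500 in both groups. The part of these cells in the result was not tested. The difference between the herbimycin effects in the 2 settings was called for 0 of 33 members by limma, beside 0.371% of all probe sets. An unadjusted p below 0.05 was reached by 1 of the 33 members (Rps20), beside 972 of all 9977 probe sets.

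**Figure D4:**
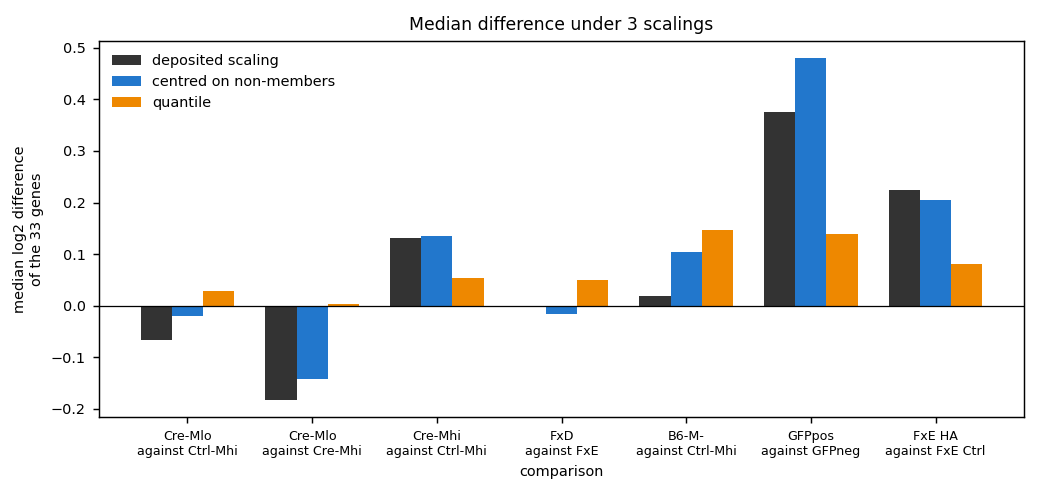
Median log2 difference of the 33 genes in the 7 comparisons (bars) with the deposited scaling, with each array centred on the probe sets that are not members, and after quantile normalization. The medians in GFPpos against GFPneg and FxE HA against FxE Ctrl stay above 0 in all 3, at 0.38, 0.48 and 0.14 and at 0.22, 0.21 and 0.08, while that in Cre-Mlo against Cre-Mhi goes from -0.18 to 0.0026.

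Across the 10 groups, bright members were mostly higher in cells sorted from marrow than in the interleukin-7 cultures. Of the marrow groups, FxE Ctrl and FxE HA had themselves been cultured 1 to 2 days, without interleukin-7 expansion. An F test over the groups (limma) called 20 of 33 members (60.6%), beside 53.3% of all probe sets, and without the amplified FxD and FxE again 20, beside 49.1%. Of these, 17 were called both ways. Rpl22, Rpl6 and Rpl7a were called with all groups alone, and Rpl19, Rps18 and Rps24 without FxD and FxE alone. Among probe sets with mean signals of at least 500, the F test called 84% of members, beside 83.8% of all those tested. After quantile normalization the shares were 54.5% and 54.8%, and after centring 72.7% and 58%. The share of members called was thus not above that of all probe sets under every setting. The largest F belonged to Rpsa (17.4; adjusted p = 1.27e-08), Rpl7l1 (15.4), Rpl13a (15.1), Rps3 (14.1), Rps19 (12.8) and Rps10 (11.9), all with limma adjusted p-values of 6.22e-07 or less. Among the 20 bright members, 11 had their highest group mean in FxE HA and 5 in FxD, and 7 had their lowest in Cre-Mlo and 7 in GFPneg.
Rps3 had lowest, median and highest signals of 49022, 54686 and 83019 over the 21 arrays of interleukin-7 cultures and 77045, 92961 and 121802 over the 16 arrays of sorted marrow cells. The overlap came from Cre-Mhi replicate 3 and GFPpos replicate 1, at 78225 and 83019. Rpl7l1 ran from 554 to 982 in the cultures, with a median of 713, and from 938 to 2283 in marrow cells, with a median of 1600, and of the latter only 2 FxD arrays, at 938 and 977, lay in the culture range. Rps19 had group means of 38834 ± 7145 (SD, n = 4) in Cre-Mlo, 40607 ± 6997 (n = 4) in Ctrl-Mhi, 42009 ± 4905 (n = 3) in GFPneg and 49132 ± 10594 (n = 4) in Cre-Mhi, which overlap. Above these lay B6-M- at 53262 ± 9775 (n = 3), FxD at 57525 ± 27481 (n = 3), GFPpos at 65741 ± 13231 (n = 3), FxE at 78448 ± 4053 (n = 3), FxE Ctrl at 92419 ± 11995 (n = 4) and FxE HA at 112553 ± 14665 (n = 6).
Rpsa was ordered otherwise. It was highest in FxD at 30834 ± 6090 (n = 3) and FxE at 27639 ± 760 (n = 3), then FxE Ctrl at 23452 ± 1372 (n = 4), FxE HA at 23300 ± 4327 (n = 6), B6-M- at 20678 ± 2305 (n = 3), GFPpos at 20401 ± 5655 (n = 3) and GFPneg at 17232 ± 1180 (n = 3), and lowest in Cre-Mhi at 14130 ± 1489 (n = 4), Ctrl-Mhi at 12534 ± 1004 (n = 4) and Cre-Mlo at 11108 ± 645 (n = 4). Among neighbours in this order, FxE arrays lay above all FxE Ctrl arrays and GFPneg arrays above all Cre-Mhi arrays, and the other neighbours overlapped.
Rpl13a was high in FxD at 20676 ± 5989 (n = 3), GFPpos at 14947 ± 5517 (n = 3), FxE at 14044 ± 1267 (n = 3) and FxE HA at 10969 ± 1399 (n = 6), and low in FxE Ctrl at 7023 ± 817 (n = 4) and Cre-Mlo at 6262 ± 67.5 (n = 4).
Rpl10a and Rps27 ran the other way, with interleukin-7 culture and marrow medians of 33122 and 25199 for Rpl10a and of 3655 and 2781 for Rps27. Rps7, a small-subunit protein that binds Mdm2, was the flattest of all, with group means from 51775 to 64448 and an F of 0.72 (limma adjusted p = 0.747). Rps18, Rps4x, Rpl19 and Rps24 were next, all with group means inside 0.58 on the log2 scale.
Over all bright members, the marrow groups exceeded the interleukin-7 cultures in 17 of 20, with a median log2 difference of 0.44. It was 0.17 over the 430 non-member probe sets above the same threshold, which were not matched in signal level, and -0.01 over all probe sets. Strain, transgenes, culture, other marrow lineages and, for FxD and FxE, amplification differ along with this contrast and cannot be told apart.

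**Figure D5:**
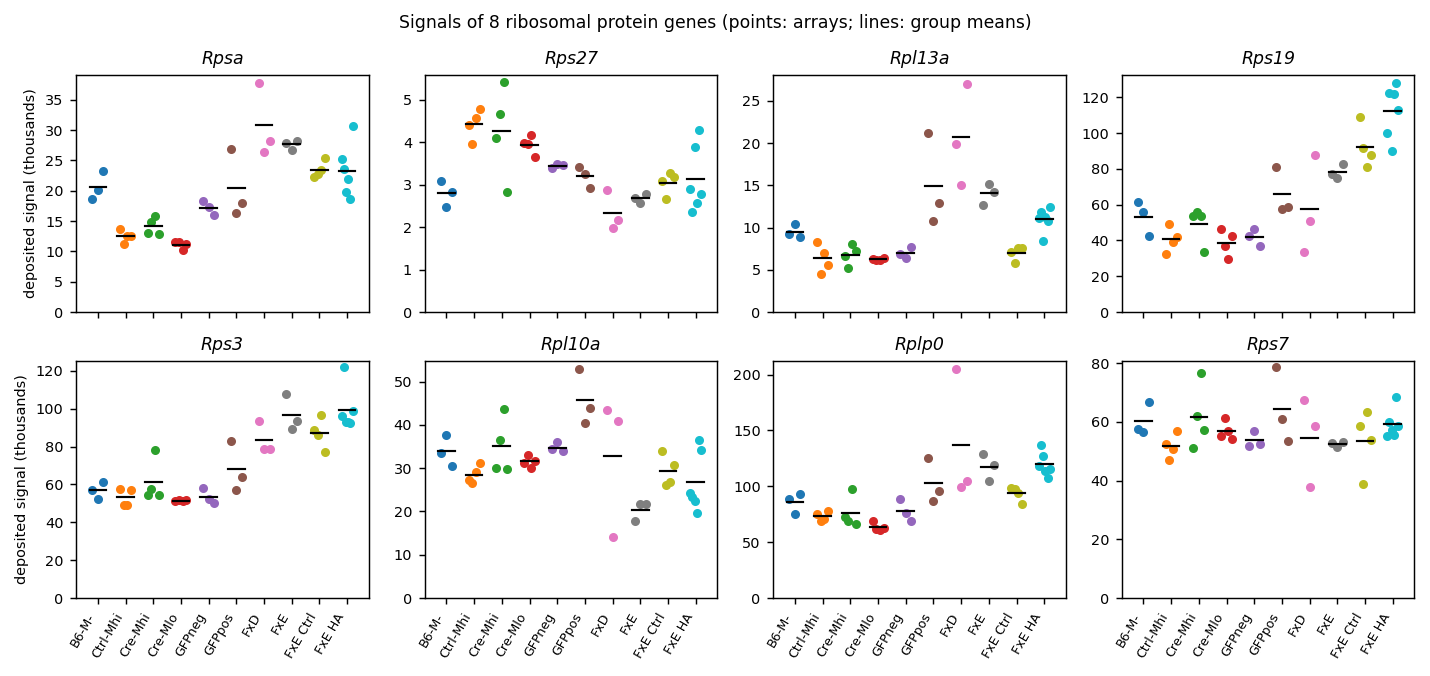
Deposited signals (axes from 0, scale on the axis label) of 8 ribosomal protein genes by group; points are arrays and lines group means. Rpsa and Rps3 have higher group means in the groups sorted from marrow. Rps19 does too except in FxD, whose mean lies below that of GFPpos. Rpl13a is higher in GFPpos and FxE HA than in GFPneg and FxE Ctrl, and Rpl10a runs lower in FxE than in every culture group. Rps27 is low in FxE, FxD and B6-M-, and Rps7 is flat.

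Members varied together to different degrees. Over the 37 arrays, which share scaling and groups, the correlation of a bright member with the mean of the other 32 had a median of 0.73, up to 0.85 for Rpl7 and 0.84 for Rpl41, and Rpl10a stood apart at -0.01 and Rpl37a at 0.12. Pairs of bright members had a median of 0.59. The lowest values of all members were -0.27 for Rpl39, -0.18 for Rps14 and -0.13 for Rps27. Among 4011 other genes with mean signals of at least 500, those that followed the mean of the 33 most closely were Commd9 (r = 0.74), Cox6c (0.74), Mt3 (0.74), Ighm (0.74), Timm44 (0.73), Kcnk4 (0.72), Igdcc3 (0.71), Uqcrc2 (0.71), Mrpl45 (0.70) and Yju2 (0.70), and these correlations describe the 37 arrays only.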

How the data were processed

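RNA of 37 samples had been hybridised to Affymetrix U74Av2 arrays, and the authors deposited signal intensities per probe set, masked and scaled in Microarray Suite to a target of 1500 per the labels. No detection calls were used. Samples measured on another version of the array were not used here, since members were defined on U74Av2. Intensities were raised to 20, taken as log2 and fitted with limma 3.58.1 in R 4.3.3 over all 9977 probe sets (two-sided, Benjamini-Hochberg, adjusted p under 0.05). The fit of the 3 Cre groups was joint, that of FxE HA and FxE Ctrl had hours of culture as a covariate, taken by replicate number from a legend of the study, and the others held 2 groups. Replicates were independent sorts per the methods, but the labels do not tie them to separate animals, so that p-values measure the spread between these samples, which may be partly technical. The methods' t-test asks for p under 0.01 (0.05 for FxD against FxE), a 2-fold change and a difference over 200. Changes under 2-fold are therefore never called by it, whatever their p. Same-numbered samples deviated together in Cre-Mlo and Cre-Mhi (correlations 0.17 to 0.44), and not throughout any other comparison. The numbers may thus pair the samples of these 2 groups, and a paired test was not run. Printed values come from the fit without the block unless the block is named. Fits were tested on simulated data. Genes were named for calls, for known roles on a set list, and for extreme level, spread or correlation; the members and lists were chosen with earlier results of these data known. Members named outside this rule (Rpl10a, Rps10, Rpl6, Rpl7, Rpl7a, Rpl35a, Rpl37a, Rpl38, Rps29, Rps3a1, Rps20) were chosen after their values were seen. Probe sets were named through the platform's annotation, with 907 of 9977 unnamed and 346 matching several genes. The number of arrays limits the precision. Alternatives were a floor of 100, quantile normalization, centring on non-member probe sets, mean signals of at least 500, all 37 arrays in one fit, the replicate block, the methods' t-test and leaving out each array. Fits of the 24 h and 48 h arrays alone, the shared probe sets, and the medians under each setting were added after seeing the data.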

Additional observations from a re-analysis of the deposited data

Results flagged for a closer look

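Within groups of 4 to 6 arrays, 115 sets of values were checked for a single array whose gap to the nearest other exceeded Dixon's 95% critical share of the range, and chance alone marks about 1 in 20 of such sets. Of these, 8 were marked. In Cre-Mhi, replicate 3 was the highest for Rpl41 (216246 units, next 135990), Rps24 (203998, next 110253), Rps3 (78225, next 57790) and the dim Rpl39l (438, next 111), and replicate 4 was the lowest for Rps19 (33343, next 53494). In FxE Ctrl, replicate 1 was the highest for Rpl19 (112252, next 82930). In FxE HA, replicate 2 was the highest for Rps3 (121802, next 98864) and replicate 5 for Rps7 (68560, next 59798). Why these arrays stand apart was not tested.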

How the results depend on the processing

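No value changed to a call in the opposite direction under any alternative run. Without one array each, the count of members called stayed at 0 except in B6-M- against Ctrl-Mhi, where it ran from 0 to 2. Over all probe sets, calls in FxD against FxE dropped from 299 to at most 71 higher and 54 lower, and some fits gave 0. In GFPpos against GFPneg they dropped from 258 to at most 48 higher and 43 lower, and several fits gave 1. Cre-Mhi against Ctrl-Mhi had only 2 calls to begin with. The 0 counts of members in these comparisons therefore say little once an array is left out. The median log2 differences then ran from -0.10 to -0.05 (Cre-Mlo against Ctrl-Mhi), -0.25 to -0.08 (Cre-Mlo against Cre-Mhi), 0.04 to 0.22 (Cre-Mhi against Ctrl-Mhi), -0.23 to 0.19 (FxD against FxE), -0.04 to 0.07 (B6-M- against Ctrl-Mhi), 0.24 to 0.45 (GFPpos against GFPneg) and 0.16 to 0.27 (FxE HA against FxE Ctrl). A floor of 100 gave 1 call in Cre-Mlo against Cre-Mhi (Rpsa), 1 in FxD against FxE (Rpl35a) and 2 in FxE HA against FxE Ctrl (Rpl13a and Rplp0). Leaving out probe sets with means under 500, so that fewer were tested, gave 1 (Rpsa), 3 in B6-M- against Ctrl-Mhi (Rpl13a beside Rpsa and Rps27), 3 in GFPpos against GFPneg and 1 in FxE HA against FxE Ctrl, and the median in B6-M- against Ctrl-Mhi became 0.12. All 37 arrays in one fit gave 1 call each in GFPpos against GFPneg and FxE HA against FxE Ctrl (Rpl13a in both). Under the replicate block, calls in B6-M- against Ctrl-Mhi went from 2 to 0, as with the methods' t-test (0, and 0 after Benjamini-Hochberg), and calls over all probe sets there went from 1417 to 137. That fit also loses Ctrl-Mhi replicate 4, which has no partner, and leaving out this array alone gave 0 members and 985 calls. These samples share only a number, and the block changed no other count of members called. Under the block, however, calls over all probe sets went to 0 in 3 comparisons. These were FxD against FxE (from 299), GFPpos against GFPneg (from 258) and FxE HA against FxE Ctrl (from 336). No member could be called there, so the unchanged counts say nothing. Quantile normalization gave medians of 0.029 (Cre-Mlo against Ctrl-Mhi), 0.15 (B6-M- against Ctrl-Mhi), 0.14 (GFPpos against GFPneg) and 0.080 (FxE HA against FxE Ctrl), and centring gave 0.10 in B6-M- against Ctrl-Mhi. With the shared probe sets added, chosen after seeing the data, B6-M- against Ctrl-Mhi had 4 calls and a median of 0.096, and the shared probe sets alone had 0.11 there and -0.0050 in Cre-Mlo against Ctrl-Mhi. Counting every probe set of the members raised their share to 5.58% in B6-M-, 5.14% in Ctrl-Mhi, 5.09% in Cre-Mlo and 5.13% in GFPneg. The cause of the other changes was not tested. The 8 members with means under 500 had intervals mostly wider than a 2-fold change, which limits what can be said of them.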
